A study of Mus musculus and Macaca mulatta with 39 samples.

Results

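Constant H3K27ac loci of fetal rhesus cortex were the stretches of genome that carried a called H3K27ac region in every one of 5 rhesus cortex region lists. Regions of the 5 lists that overlapped or touched were merged into loci, and a locus was constant when all 5 lists had at least 1 region in it. The loci were thus chosen by the H3K27ac calls themselves, so their presence in every list is not a result. On chromosomes 1, 2, 3, 4, 9, 10, 11, 12, 16 and 18, to which the rule was limited, 13521 of 64243 loci (21.0%) were constant. The whole genome held 120402 loci. The lists came from chromatin immunoprecipitation followed by sequencing (ChIP-seq) of rhesus macaque embryonic cortex without treatment. The samples were 1 replicate of whole cortex at 8 weeks after conception (pcw), 2 replicates of 12 pcw frontal cortex and 2 replicates of 12 pcw occipital cortex. The submitters describe them as biological replicates, and each replicate had an H3K27ac library, an H3K4me2 library and 1 input control shared by both marks. The labels do not say whether frontal and occipital pieces came from the same fetus. The tissue was a bulk dissection, so fewer marked cells and less of the mark in each cell cannot be told apart.

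H3K27ac, acetylation of lysine 27 on histone H3, marks the nucleosomes beside promoters and enhancers that are in use. It is laid down by the acetyltransferases p300 and CBP, and long unbroken stretches of it are often found around genes that define a cell's identity. H3K4me2, dimethylation of lysine 4, covers active promoters and enhancers too, but also elements that are open without being acetylated. In the developing cortex, neural progenitors give way to neurons over the weeks sampled, and the frontal and occipital poles acquire different gene activity. The files give each region's chromosome, start and end and no height, so what could be measured is where each mark was called and over how many bases. Sequencing depth is not in the files. Genome positions are those of the deposited rhesus lists, whose build was not given in the sources used here. No rhesus genome or gene annotation was used, so genes and sequences at the loci are not given, and the tissue labels were not checked against marker genes.

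The 5 H3K27ac lists held 55282 to 72698 regions each, covering 98.8 to 169 Mb. The H3K4me2 lists varied more, from 30442 regions over 61.2 Mb in frontal replicate 1 to 87584 regions over 188 Mb at 8 pcw. In frontal replicate 2 and occipital replicate 1, the H3K27ac list stopped 1190700 to 25766400 bp before the longest list on 10 other chromosomes. On chromosome 20 these lists ended at 63001675 and 63018600, against 88187100 for the longest list. A locus beyond those ends cannot be constant, and the share of constant loci was 19.0% on the chromosomes outside the rule. On the chromosomes of the rule, the same lists ended within 239350 bp of the longest. The cause of the early ends was not tested.

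Constant loci were wide. Their spans ran from 950 to 80975 bp, with a median of 3350 bp, an interquartile range of 2275 to 5950 bp and a 95th percentile of 14150 bp. The median span was 700 bp for loci called in 1 list, 1225 bp in 2, 1975 bp in 3 and 2625 bp in 4. Merging lengthens a locus with each list that joins it, so this order is partly built into the rule and is given without a test. Loci called in 1 list made up 45.9% of all loci on these chromosomes (29466), and those called in 4 lists 8.17% (5249). The list absent from a locus called in the other 4 was most often that of 8 pcw, at 2264 loci (43.1%). It was frontal replicate 2 at 1241 loci, occipital replicate 2 at 1047, frontal replicate 1 at 422 and occipital replicate 1 at 275. This order follows the length of the lists, with the shortest list absent most and the longest absent least.

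**Figure D1:**
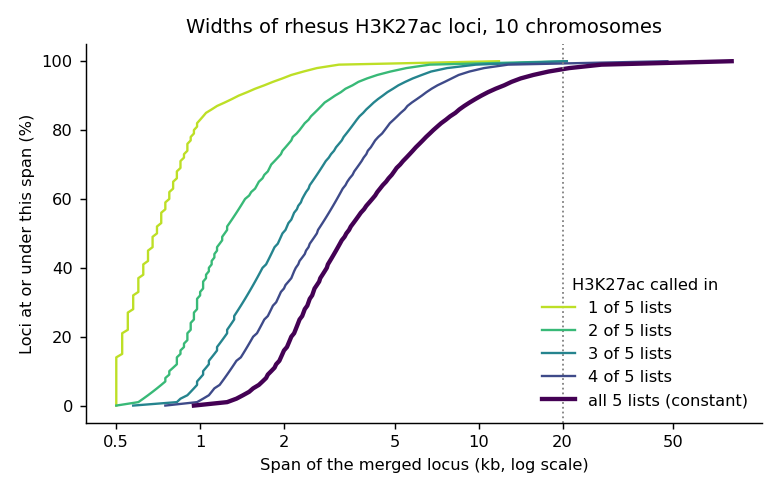
Cumulative share of loci (y axis, percent) at or under a given merged span (x axis, kb, log scale) for loci called in 1 to 5 H3K27ac lists on the 10 chromosomes. The curve of constant loci lies farthest right, with a median of 3350 bp against 700 bp for loci called in 1 list.

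Most constant loci were under 5 kb. There were 2075 under 2 kb (15.3%), 7120 of 2 to 5 kb (52.7%), 2911 of 5 to 10 kb (21.5%) and 1111 of 10 to 20 kb (8.22%). The 304 loci of 20 kb or more were 2.25% of constant loci and held 13.1% of their span. The share of loci that were constant differed among the 10 chromosomes. Of these, chromosome 16 had the largest share at 33.4% of its loci, followed by chromosome 10 at 26.3% and chromosome 1 at 25.1%. Chromosome 18 had the smallest at 15.1%, with chromosomes 12 and 2 at 15.6% and 15.9%. The median distance between neighbouring constant loci was 35275 bp, and 14.7% of the gaps were under 5 kb.

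Being called in every list did not mean that the same bases were called. The stretch shared by all 5 lists had a median of 1300 bp, or 41.1% of the locus. Summed over constant loci, 24.3 of 69.6 Mb (35.0%) was called in every list. At 923 constant loci (6.83%), the lists' regions were linked end to end and no base was shared by all 5. The shared stretch was the largest part of the locus among the narrowest loci, with a median of 57.4% under 2 kb. It was 48.4% at 2 to 5 kb, 23.0% at 5 to 10 kb and 23.6% at 10 to 20 kb, and 33.7% among loci of 20 kb or more.

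The length of H3K27ac called within constant loci was lowest at 8 pcw. It summed to 38.8 Mb at 8 pcw, 48.7 and 42.2 Mb in frontal replicates 1 and 2, and 56.4 and 46.5 Mb in occipital replicates 1 and 2. At 12 pcw the mean was 48.5 Mb ± 5.95 (SD, n = 4), with 45.5 Mb ± 4.6 (n = 2) in frontal and 51.5 Mb ± 7.0 (n = 2) in occipital cortex. All 4 lists of 12 pcw lay above the single 8 pcw list, while the frontal and occipital lists overlapped. With 1 list at 8 pcw, no test was made of these totals. They also follow the length of the whole lists on these chromosomes, which was 50.8 Mb at 8 pcw and 63.2 to 97.4 Mb at 12 pcw.

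As a share of all H3K27ac called on these chromosomes, the 8 pcw list was the highest and occipital replicate 1 the lowest. Constant loci held 76.5% of the called bases at 8 pcw, 68.6% and 66.7% in frontal replicates 1 and 2, and 57.9% and 69.7% in occipital replicates 1 and 2. The 8 pcw list thus had the shortest constant loci and the least H3K27ac outside them. The median constant locus was covered over 1925 bp at 8 pcw, 2325 and 2000 bp in frontal cortex, and 2650 and 2250 bp in occipital cortex. Occipital replicate 1 was the longest list overall and covered 23.7% of constant loci from end to end. The other 4 lists did so at 2.29% to 5.3% of loci. Most constant loci were 1 unbroken region within a list, at 84.3% to 90.4% of loci.

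Between stages, no constant locus passed the test at this number of lists. limma on log2(covered bp + 200), with Benjamini-Hochberg adjustment over the 65601 loci called in at least 2 lists, called 0 of 13521 constant loci at adjusted p under 0.05, beside 0.0% of all loci tested. The smallest adjusted p of a constant locus was 0.218. At an unadjusted p under 0.05 there were 1439 constant loci (10.6%), 1244 with longer and 195 with shorter H3K27ac at 12 pcw, against 9.52% of all loci. All loci here include those beyond the early ends of 2 lists of 12 pcw. When limma was fitted on the 10 chromosomes of the rule alone, 1465 of 13521 constant loci and 3714 of 34777 loci in all had an unadjusted p under 0.05. The 2 shares were then nearly the same. On simulated H3K27ac lengths with these numbers of lists, limma seldom called loci that had been changed. Thus 0 calls of H3K27ac here and between tissues do not show that lengths were equal. H3K4me2 lengths were not simulated, and 0 calls for that mark do not show equal lengths either. The median difference, 12 pcw minus 8 pcw, was 0.19 on this log2 scale for constant loci and 0.42 for all loci. For all loci it was 0.17 with frontal replicate 1 left out, 0.21 with occipital replicate 1 left out and 0.54 in the fit on the 10 chromosomes. With each list scaled to its total length, the median of constant loci turned to -0.21 and that of all loci to 0.03. The direction at the median of constant loci thus depended on how total length was treated. These totals were taken over all chromosomes. They leave out what lies beyond the early ends of frontal replicate 2 and occipital replicate 1, and scaling on the chromosomes of the rule alone was not done. When loci called in any list entered the fit, 200 of 13521 constant loci were called (188 longer, 12 shorter). Over all loci 9782 of 120402 (8.12%) were called in that fit, 1354 longer and 8428 shorter. That fit took in loci called only in the 8 pcw list, which no 12 pcw list covers. Such loci have no spread among the 12 pcw lists and can only be shorter, so the direction of the calls among all loci is partly set by the filter. It is not a measure against which the 200 can be read.

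Although no locus passed, many constant loci were ordered by stage. All 4 lists of 12 pcw covered more bases than the 8 pcw list at 5176 constant loci (38.3%, against 19.7% of all loci tested). All 4 covered fewer at 1147 (8.48%, against 10.1% of all loci tested). The group of all loci holds those missing from some lists, at which such an order is reached differently, and no test was made between the shares. Among constant loci, the share with all 4 lists longer was 45.5% under 2 kb, 34.8% at 5 to 10 kb and 47.7% at 20 kb or more.

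**Figure D2:**
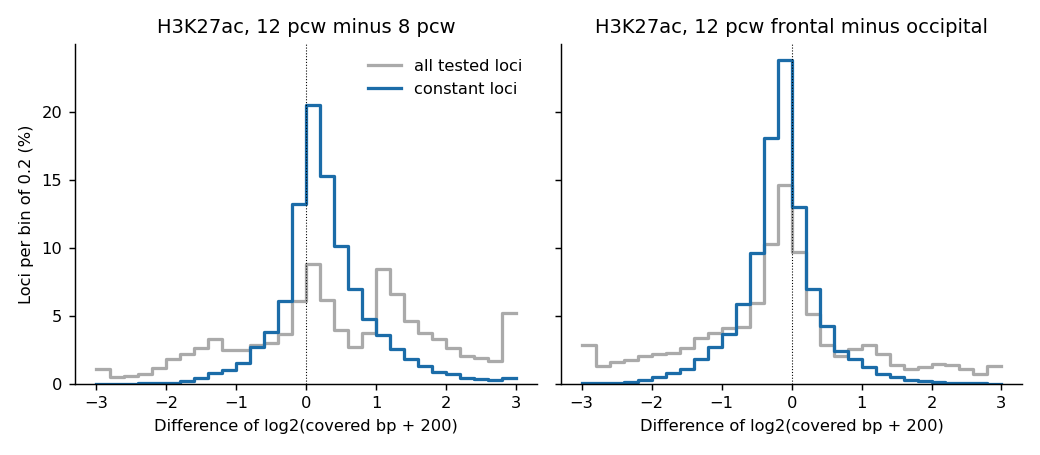
Share of loci (y axis, percent per bin) by the difference of log2(covered bp + 200) (x axis) for H3K27ac at 12 pcw minus 8 pcw and at frontal minus occipital cortex, for constant loci and for all loci tested, with differences beyond 3 collected in the outer bins. Constant loci are packed more tightly around their medians of 0.19 and -0.16 than all loci. They have H3K27ac in every list by the rule, while all loci tested include loci missing from some lists, so this is partly built in.

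The locus with the largest gain in mean covered length at 12 pcw, among loci where the lists did not overlap, was one of 59650 bp on chromosome 16 from 69259826 to 69319475. It was covered over 15850 bp at 8 pcw, 54075 and 36300 bp in frontal replicates 1 and 2, and 56900 and 43100 bp in occipital replicates 1 and 2. On chromosome 9 from 48429526 to 48474050, the lengths were 7525 bp at 8 pcw, 38625 and 24950 bp in frontal cortex, and 38125 and 44525 bp in occipital cortex. The third lay on chromosome 12 from 61904401 to 61947125 and had 1675 bp at 8 pcw, 31400 and 10550 bp in frontal and 41825 and 36275 bp in occipital cortex. At all 3, every 12 pcw list covered more of the locus than the 8 pcw list, which was a condition of their choice. Most 12 pcw lists held several regions there, and at the chromosome 12 locus both frontal lists were broken into 8. Occipital replicate 1 had 1 region of 41825 bp at that locus. Occipital replicate 2 covered the whole chromosome 9 locus with 1 region. The log2 differences of the 3 loci were 1.55 ± 0.57 (SE), 2.22 ± 0.44 and 3.84 ± 0.71, with limma adjusted p of 0.49, 0.329 and 0.316.

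In the other direction, a locus of 15200 bp on chromosome 16 from 41748776 to 41763975 was covered over its whole length at 8 pcw. At 12 pcw it was covered over 2650 and 1125 bp in frontal and 5875 and 3175 bp in occipital cortex (log2 difference -2.38 ± 0.62, limma adjusted p 0.413). A second one on the same chromosome, from 42136901 to 42156425, had H3K27ac over 19525 bp at 8 pcw, 9850 and 9725 bp in frontal and 9725 and 8925 bp in occipital cortex. There the 4 lists of 12 pcw were nearly equal. The third was on chromosome 2 from 72418151 to 72437500, with 19350 bp at 8 pcw, 9225 and 3675 bp in frontal and 15625 and 7025 bp in occipital cortex. At each of these 3 loci the 8 pcw list filled the locus from end to end.

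No constant locus passed the test between frontal and occipital cortex either. limma called 0 of 13521 at adjusted p under 0.05, beside 0.0% of all loci tested, and the smallest adjusted p was 0.169. At an unadjusted p under 0.05 there were 1016 constant loci (7.51%), against 14.2% of all loci. The median difference, frontal minus occipital, was -0.16 for constant loci and -0.18 for all loci, and 0.10 for constant loci after scaling to list length. For constant loci it was -0.23 without frontal replicate 1 or without occipital replicate 2, and nearer 0 with either list that ends early left out, at -0.07 (frontal replicate 2) and -0.08 (occipital replicate 1), and for all loci it ran from -0.40 to -0.01. Both frontal lists were longer than both occipital lists at 1533 constant loci (11.3%, against 12.4% of all loci). Both occipital lists were longer at 4591 (34.0%, against 25.6% of all loci). All loci tested include those beyond the early ends of 1 frontal and 1 occipital list.

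Replicates of 1 tissue differed about as much as the tissues did. The covered length of a constant locus differed 2-fold or more between the frontal replicates at 17.1% of loci and between the occipital replicates at 16.2%. Across the tissues the share was 12.0% between the first replicates, 20.8% between the second replicates, 16.6% between frontal replicate 1 and occipital replicate 2, and 27.2% between frontal replicate 2 and occipital replicate 1. The 8 pcw list differed 2-fold or more from each 12 pcw list at 21.8% to 26.0% of loci. The first replicates of frontal and occipital cortex were thus closer to each other than either was to its own second replicate.

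Among loci where the tissues did not overlap, one on chromosome 1 from 5495076 to 5550525 had the largest frontal excess. H3K27ac covered 46275 and 55375 bp in frontal, 37125 and 29100 bp in occipital cortex and 19975 bp at 8 pcw (log2 difference 0.62 ± 0.44, limma adjusted p 0.703). On chromosome 2 from 98535376 to 98559725, H3K27ac covered 19275 and 22750 bp in frontal cortex, against 10850 and 4175 bp in the occipital lists and 7850 bp at 8 pcw. Here the frontal lists stood above all 3 others. The occipital excess was largest on chromosome 4 from 153601051 to 153649700, at 40750 and 48650 bp against 28750 and 20775 bp in frontal cortex and 20325 bp at 8 pcw. On chromosome 18 from 48586026 to 48622500, occipital cortex had 36475 and 29325 bp, frontal cortex 17325 and 10725 bp and the 8 pcw list 26925 bp (log2 difference -1.25 ± 0.39, limma adjusted p 0.31). Of the loci with an occipital excess, the 8 pcw list was nearer the frontal lists on chromosome 4 and between the tissues on chromosome 18.

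Nearly all loci spanning 20 kb or more were constant. Merging lengthens a locus with each list that joins it, so this is partly built into the rule. Of 312 loci spanning 20 kb or more on the 10 chromosomes, 304 were constant, 6 were called in 4 lists and 2 in 1 to 3 lists. The 304 broad constant loci summed to 9.09 Mb with a median span of 26500 bp. There were 196 of 20 to 30 kb, 71 of 30 to 40 kb, 21 of 40 to 50 kb and 16 of 50 kb or more. Spans ran on without a gap across this threshold. The narrowest locus inside it spanned 20075 bp, on chromosome 10 from 1630226 to 1650300, and was covered over 13875 bp at 8 pcw, 15575 and 20075 bp in frontal and 17625 and 16025 bp in occipital cortex. The widest outside it spanned 19850 bp, on chromosome 4 from 17531201 to 17551050, and was covered over 8800, 10025, 14375, 16575 and 15825 bp in the same order.

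Few broad loci were single domains in every sample. The median covered length was 15075 bp at 8 pcw, 20612 and 17687 bp in frontal replicates 1 and 2, and 23612 and 19350 bp in occipital replicates 1 and 2. The number covered over at least 20 kb was 91 at 8 pcw, 160 and 127 in frontal cortex, and 227 and 145 in occipital cortex. Only 53 reached 20 kb in every list, and 29 reached it in none. A broad locus was made of 3.7 regions on average at 8 pcw, 3.34 and 3.77 in frontal cortex, and 2.2 and 2.79 in occipital cortex. It was 1 unbroken region in at least 1 list at 207 loci and in every list at 1. By the mean covered length over the 5 lists, 128 constant loci reached 20 kb. Without the 2 lists that end early on other chromosomes, 158 loci did so by span.

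At 12 pcw, all 4 lists were longer than at 8 pcw at 145 broad loci (47.7%, against 19.7% of all loci tested) and shorter at 12 (3.95%, against 10.1%). The median log2 difference of broad loci was 0.39, compared with 0.19 over all constant loci, and 45 (14.8%, against 9.52% of all loci tested) had an unadjusted p under 0.05 by limma, all of them longer at 12 pcw. Frontal lists were both longer at 38 broad loci (12.5%, against 12.4% of all loci tested), a share near that of all loci. Occipital lists were both longer at 100 (32.9%, against 25.6%), and the median was -0.16. Broad loci were chosen by their merged H3K27ac span, so the order of the lists at them is partly built in. Occipital replicate 1 was the longest list at 150 of them and the 8 pcw list at 12. All loci tested include loci missing from some lists and loci beyond the early ends, and no test was made between the shares.

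The widest constant locus spanned 80975 bp on chromosome 1 from 6066051 to 6147025. It was covered over 52750 bp at 8 pcw, 74425 and 73725 bp in frontal cortex, and 74725 and 53450 bp in occipital cortex. The second, of 75750 bp on chromosome 12 from 6888976 to 6964725, was uneven, with 23950 bp at 8 pcw, 46925 and 14725 bp in frontal cortex and 75750 and 33225 bp in occipital cortex. Only in occipital replicate 1 was it a single domain across its whole span. By contrast, the locus of 63150 bp on chromosome 16 from 24254226 to 24317375 had H3K27ac over 57800 bp at 8 pcw, 56575 and 58150 bp in frontal cortex, and 59900 and 57975 bp in occipital cortex. Of the 10 widest loci it had the largest shared stretch, 79.0% of its span, while the locus on chromosome 12 had the smallest, 14.4%.

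**Figure D3:**
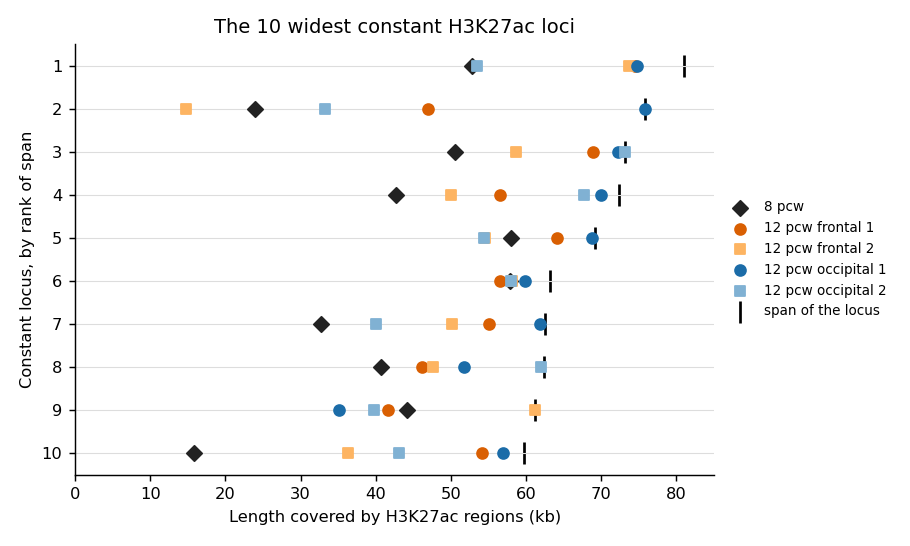
Length covered by H3K27ac regions (x axis, kb) in each of the 5 lists for the 10 widest constant loci, ranked by span (y axis), 1 point per list, with a vertical tick at the span. The points of rank 6 nearly coincide (56575 to 59900 bp), while those of rank 2 run from 14725 to 75750 bp.

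Some broad loci lay side by side. Of the 304, 128 were within 100 kb of another and formed 49 runs, 17 of them with 3 or more. Neighbouring constant loci of any width lay a median of 35275 bp apart, and whether broad loci lay closer than other loci was not tested. Some were parted by short gaps, such as 175 bp after the locus on chromosome 10 from 70923026 to 70970825, so a run can hold pieces of 1 stretch. The longest run covered 577275 bp of chromosome 10, from 70587151 to 71164425, and held 9 broad loci that made up 64.0% of it. Its broad loci were covered over 54.7% of their span at 8 pcw, 77.1% and 68.8% in frontal cortex, and 95.7% and 90.1% in occipital cortex. The ranks 3 and 4 among the widest constant loci, of 73175 and 72300 bp, were in this run. In a run of 6 broad loci on chromosome 9, from 58588526 to 59000875, the covered share was 75.9% at 8 pcw, 89.8% and 76.7% in frontal and 92.8% and 72.9% in occipital cortex. In the first run both occipital lists lay above both frontal lists, and in the second the tissues overlapped.

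H3K4me2, which the rule did not use, was called at most constant loci. The share overlapped by at least 1 bp of H3K4me2 from the same replicate was 97.2% at 8 pcw, 72.0% and 94.6% in frontal replicates 1 and 2, and 88.9% and 88.6% in occipital replicates 1 and 2. The mean was 88.3% ± 9.81 (SD, n = 5). Loci called in 4 H3K27ac lists had 76.2%, 32.5%, 77.9%, 63.9% and 57.9% in the same order. The difference was 26.6 percentage points ± 8.89 (SD, n = 5) and ranged from 16.7 to 39.5. It was positive in 5 of 5 lists, with a two-sided exact sign-flip permutation p of 0.0625, the smallest that 5 lists allow. Both marks of a replicate share an input library, and constant loci were wider than loci called in 4 lists. Within width classes the mean overlap of constant loci and of loci called in 4 lists was 89.0% and 61.3% under 2 kb, 88.8% and 59.9% at 2 to 5 kb, and 85.1% and 66.2% at 5 to 10 kb. It was 89.8% and 76.0% at 10 to 20 kb, and 96.2% and 90.0% at 20 kb or more, where only 6 loci were called in 4 lists. Constant loci were the higher in each class, by less in the classes from 5 kb up.

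The overlap grew with each further H3K27ac list. Loci also grew wider over these steps, from a median of 700 bp in 1 list to 3350 bp in all 5, and a wider locus is overlapped more easily. The part of width in this order was not tested. Averaged over the 5 H3K4me2 lists, it was 14.0% for loci called in 1 H3K27ac list, 29.3% in 2, 45.2% in 3, 61.7% in 4 and 88.3% in all 5. The share with H3K4me2 in all 5 lists was 1.64%, 5.17%, 13.1%, 28.6% and 70.8%. Among constant loci, 9575 had H3K4me2 in all 5 lists, 1912 in 4, 886 in 3, 522 in 2, 442 in 1 and 184 (1.36%) in none. The frontal replicate 1 list was the shortest H3K4me2 list and the lowest at every step.

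**Figure D4:**
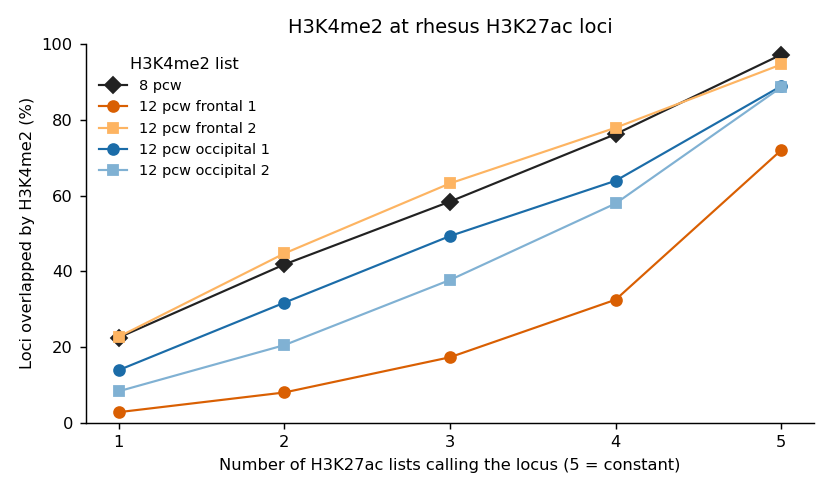
Share of loci overlapped by H3K4me2 (y axis, percent) by the number of H3K27ac lists that called the locus (x axis, 5 meaning constant), 1 line per H3K4me2 list. Every line climbs to its highest point at the constant loci, between 72.0% in frontal replicate 1 and 97.2% at 8 pcw. Loci called in more lists were also wider.

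H3K4me2 covered a larger share of the stretch that all H3K27ac lists shared than of the rest of the constant loci. It covered 90.2% of the shared stretch at 8 pcw, 60.3% and 86.1% in frontal cortex, and 78.3% and 76.0% in occipital cortex. On the rest of the constant loci it covered 45.0%, 18.1%, 43.6%, 34.7% and 28.7% in the same order. The shared stretch was the higher of the pair in every list. Constant loci with H3K4me2 in all 5 lists were also the ones whose H3K27ac length varied least. A 2-fold difference between replicates was found at 11.9% of them in frontal and 9.3% in occipital cortex, against 29.9% and 33.0% of the 3946 other constant loci. The shared stretch was absent at 2.34% of the former and 17.7% of the latter. Their median spans were 3025 and 4300 bp.

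In the length of H3K4me2 at constant loci, no constant locus passed the test between stages or tissues. The fit took the 12895 constant loci with H3K4me2 in at least 2 lists, among 58877 loci on all chromosomes, and the other constant loci had no value. Between 12 and 8 pcw, limma called 0 constant loci at adjusted p under 0.05, beside 0.0% of all loci tested, and 291 (2.26%) at an unadjusted p under 0.05 against 2.16% of all loci. The median difference was -0.12, against -0.30 for all loci, and 0.57 after scaling to list length. For constant loci it was -0.28 without frontal replicate 2 and -0.02 without frontal replicate 1. All 4 lists of 12 pcw were shorter than the 8 pcw list at 4292 constant loci (33.3%, against 29.5% of all loci) and longer at 120 (0.931%, against 1.29%). When loci called in any H3K4me2 list entered, 436 of 13337 constant loci were called, 8 longer and 428 shorter. Beside them, 10647 of 75250 loci in all (14.1%) were called, 65 longer and 10582 shorter. This fit took in the 442 constant loci with H3K4me2 in 1 list only. Where that list was the one of 8 pcw, the 12 pcw lists have no spread and the locus can only be shorter. The direction of these calls is thus partly set by the filter.

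Between frontal and occipital cortex, limma called 0 constant loci for H3K4me2, beside 0.0% of all loci tested. At an unadjusted p under 0.05 there were 50 (0.388%), against 0.669% of all loci. Both frontal lists were longer at 105 constant loci (0.814%, against 1.06%) and both occipital lists at 341 (2.64%, against 2.01%). The median difference was -0.03, and 0.08 after scaling to list length. The frontal replicates pulled this result in opposite directions. Without frontal replicate 1, the shortest H3K4me2 list, 439 of 13241 constant loci were called, 434 longer and 5 shorter in frontal cortex, beside 4760 of 57911 loci in all (8.22%), and the median was 0.08. Without frontal replicate 2, limma called 0 of 13590, with a smallest adjusted p of 0.0971, 4106 at an unadjusted p under 0.05 and a median of -0.26. Each of these fits left frontal cortex with 1 list, as at 8 pcw. The residual spread at a locus then came from the difference between the occipital lists alone. Frontal cortex was assumed to vary in the same way.

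The largest gain of H3K4me2 at 12 pcw among constant loci was on chromosome 12 from 63019476 to 63066050, a locus of 46575 bp. H3K4me2 covered 23400 bp at 8 pcw, 42175 and 46575 bp in frontal cortex, and 46575 and 45750 bp in occipital cortex. H3K27ac there covered 9025 bp at 8 pcw, 34875 and 18325 bp in frontal cortex, and 45250 and 43625 bp in occipital cortex. Both marks were shorter at 8 pcw than in any 12 pcw list at this locus, and in every list H3K4me2 was the longer mark. The locus on chromosome 12 from 61904401 to 61947125 described for its H3K27ac had the next largest gain, with 5475 bp of H3K4me2 at 8 pcw, 9250 and 28550 bp in frontal and 31100 and 7800 bp in occipital cortex.

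The largest loss of H3K4me2 was on chromosome 1 from 44253951 to 44308200. H3K4me2 covered 51800 bp at 8 pcw, 11275 and 38800 bp in frontal cortex, and 22975 and 27025 bp in occipital cortex. H3K27ac at this locus was nearly the same length in every list, at 50150 bp at 8 pcw, 49000 and 51800 bp in frontal and 50025 and 48500 bp in occipital cortex. The evenly acetylated locus on chromosome 16 from 24254226 to 24317375 had the next largest, from 45200 bp at 8 pcw to 5000 and 34400 bp in frontal and 25750 and 19500 bp in occipital cortex. Neither difference passed the test, with limma adjusted p of 0.944 for both. At the locus on chromosome 16 from 41748776 to 41763975, both marks were shorter at 12 pcw, with 11775 bp of H3K4me2 at 8 pcw, 1750 and 2625 bp in frontal and 2550 and 2350 bp in occipital cortex.

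Broad loci had H3K4me2 more often than constant loci as a whole, but over a smaller share of their span. It overlapped 99.7% of the 304 at 8 pcw, 83.2% and 100% in frontal cortex, and 100% and 98.0% in occipital cortex. It was present in all 5 lists at 252 and in none at 0. Yet it covered 42.7% of their summed span at 8 pcw, 14.8% and 44.6% in frontal cortex, and 36.5% and 27% in occipital cortex. Over all constant loci the covered share was 60.8%, 32.8%, 58.4%, 50.0% and 45.2% in the same order, higher than that of broad loci in every list. The part of the span itself in the overlap was not tested. The median of the mean share was 27.1%, with 13 broad loci under 10% and 52 at 50% or more.

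**Figure D5:**
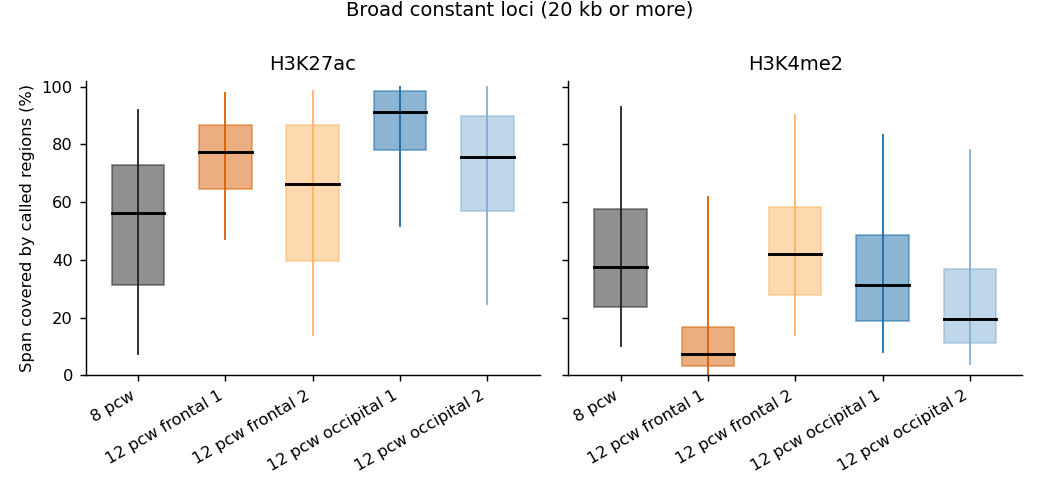
Share of the span of each of the 304 broad constant loci (y axis, percent) covered by H3K27ac regions and by H3K4me2 regions in the 5 lists (x axis), with the median and quartiles over loci as boxes and the 5th to 95th percentiles as lines. The loci were chosen by their H3K27ac span, so its higher cover is built in; H3K4me2 covered from 14.8% of the summed span in frontal replicate 1 to 44.6% in frontal replicate 2.

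Within broad loci, too, H3K4me2 covered a larger share of the shared stretch than of the rest. It covered 75.7% of that stretch at 8 pcw, 29.7% and 70.9% in frontal and 59.7% and 51.4% in occipital cortex, against 23.8%, 6.35%, 29.6%, 23.2% and 13.0% of the rest. The broad locus with the most H3K4me2 was on chromosome 4 from 94773426 to 94800075, where it covered 25875 to 26650 of 26650 bp in every list (mean 99.1%). H3K27ac covered 21775 bp of that locus at 8 pcw, 24800 and 20725 bp in frontal and 26650 and 26300 bp in occipital cortex. The one with the least was on chromosome 2 from 176749301 to 176778750, with a mean of 3.34%. Its H3K4me2 covered 1775 bp at 8 pcw, 0 and 2300 bp in frontal and 850 and 0 bp in occipital cortex. Its H3K27ac covered 5125 bp, 10850 and 1475 bp, and 29450 and 9325 bp, so its breadth came from occipital replicate 1.

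Constant loci with no H3K4me2 in any list were 184 in number, with a median span of 2925 bp. The widest was on chromosome 11 from 87139151 to 87154825, with H3K27ac over 1025 bp at 8 pcw, 13525 and 6425 bp in frontal and 7075 and 2475 bp in occipital cortex. The third widest, on chromosome 3 from 94779351 to 94791325, had H3K27ac over 7425 bp at 8 pcw, 4775 and 3550 bp in frontal and 9450 and 10250 bp in occipital cortex. Its frontal minus occipital difference in H3K27ac was -1.22 ± 0.20 (SE), with a limma unadjusted p of 0.00685 and adjusted p of 0.169. That adjusted p was the smallest in the comparison, but the adjustment gives the same value to every locus with a smaller unadjusted p. It does not single out this locus. The median shared stretch of the 184 loci was 13.5% of the span, against 52.5% at loci with H3K4me2 in all 5 lists. Only 4 of them reached 10 kb, and none reached 20 kb.

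In the other direction, constant loci held 44.0% of all H3K4me2 called on these chromosomes at 8 pcw, 72.4% and 43.5% in frontal cortex, and 52.0% and 59.6% in occipital cortex. The shortest H3K4me2 list, frontal replicate 1, was the one most concentrated on them, and the longest list and the second longest the least.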

How the data were processed

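Regions were read from 10 rhesus lists (5 of H3K27ac, 5 of H3K4me2). The deposited values are other than counts or signal: chromosome, start and end only, with starts on a 25 bp grid and widths of at least 500 bp. The submitters' processing notes name Bowtie 0.12.9, and how regions were called, at which threshold and on which rhesus build was not given in the sources used here. The mouse lists were not used. Overlapping or touching regions were merged, and the bases of each locus covered by each list were counted (Python 3.11.15, pandas 2.3.3, numpy 2.4.6, scipy 1.17.1). Loci called in at least 2 lists of a mark were fitted with limma 3.58.1 (R 4.3.3; trended variance, 2 residual degrees of freedom) on log2(covered bp + 200), with frontal, occipital and 8 pcw means, and p-values were adjusted over all loci by Benjamini-Hochberg. Steps were tested on simulated data. The p-values measure the spread between these lists. The 8 pcw group has 1 list and takes its spread from the 12 pcw lists.

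Loci named are the 10 widest, the 3 with the largest difference in mean length each way where sides did not overlap (none passed the test), the 3 broad loci with the most and least H3K4me2, and those on either side of 20 kb, of which some are printed. The loci without H3K4me2 were chosen after their values were seen. Members and lists were chosen with earlier results of these data known.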

Additional observations from a re-analysis of the deposited data

How the results depend on the processing

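The number of constant loci stayed within 1.5 times of 13521 under every alternative run, from 9279 with regions of at least 1000 bp to 15817 without the 8 pcw list. Broad loci numbered 304, and 128 by mean covered length. Leaving out 1 list gave 206 to 297, and leaving out both lists that end early, an alternative chosen after seeing the data, gave 158. The overlap difference of 26.6 points kept its sign throughout, at 25.9 to 34.8 with 1 list left out.

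Entering loci called in any list raised the calls between stages from 0 to 200 for H3K27ac and to 436 for H3K4me2, and the cause was not tested. Leaving out 1 list gave 0 to 439 calls for H3K4me2 between tissues, the highest without frontal replicate 1, and moved the median between -0.26 and 0.08, the latter without the same list. Scaling to list length reversed the 4 medians of constant loci. They became -0.21 and 0.57 between stages and 0.10 and 0.08 between tissues for H3K27ac and H3K4me2. The direction of these medians thus depended on how total length was treated. The lengths used were those over all chromosomes, which are cut short for the H3K27ac lists that end early.

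Same-numbered frontal and occipital lists share only a number in the labels. Their deviations correlated at 0.14 for H3K27ac and -0.36 for H3K4me2 over all loci, and at 0.39 and -0.37 on the 10 chromosomes, and the replicate block gave 0 calls in all 4 comparisons. The crossed pairing, added after seeing the data, gave 0 calls for H3K4me2. Without the 8 pcw list no stage comparison exists, and without both lists that end early no residual degree of freedom remains, so neither was fitted. Region lists carry no depth or height, which limits every value to called length.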
